A study of Homo sapiens with 6 samples.

Results

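Interferons are secreted cytokines that switch on antiviral genes, and 9 of the 57820 genes in the expression table, 5 interferon genes and 4 receptor genes, are described here. They were chosen by name. The interferon genes were the lambda or type III genes IFNL1, IFNL2 and IFNL3 and the type I genes IFNB1 and IFNE. The receptor genes were IFNLR1 and IL10RB, whose products pair as the receptor for lambda interferons, and IFNGR1 and IFNGR2, whose products pair as the receptor for interferon gamma. Of the 9 genes, 5 passed the filter on low counts that left 15605 genes for testing: IFNL1 and the 4 receptor genes. IFNL2, IFNL3, IFNB1 and IFNE did not pass it and are described by their counts.

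RNA-seq was carried out on M14, an established human melanoma cell line, in 2 groups of 3 libraries. All 6 libraries came from M14 cells that carried 1 doxycycline-inducible shRNA against STAG2, a subunit of the cohesin complex that shapes DNA loops, and that were grown in puromycin. The KD group received doxycycline for 5 days and the WT group did not, so WT here is the same transduced line with the shRNA not induced. No library came from doxycycline-treated cells without the STAG2 shRNA or with any other shRNA. Effects of doxycycline, of shRNA expression itself, of this shRNA on other genes and of STAG2 knockdown therefore cannot be told apart.

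Type I and type III interferons are made by cells that sense foreign or misplaced nucleic acid. They bind different receptors, but both signal through the kinases JAK1 and TYK2 to transcription factors, IRF9 among them, that bind response elements in target gene promoters. IL10RB is shared with other cytokines of the interleukin 10 family and is made in many tissues, whereas IFNLR1 is made mainly in epithelial cells, hepatocytes and some immune cells. Interferon gamma is made mainly by lymphocytes and signals through JAK1 and JAK2.

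Totals per library lay between 24895998 and 35181733 expected counts, so that 3 counts, taken as the floor of detection, corresponded to 0.087 to 0.112 CPM (counts relative to the library total after scaling with TMM factors). STAG2 had 66.5, 34.8 and 28.8 CPM in WT replicates 1 to 3 and 16.0, 7.31 and 6.69 CPM in KD replicates 1 to 3, and fell by 2.12 on the log2 scale (SE 0.43, edgeR quasi-likelihood test with Benjamini-Hochberg adjustment, adjusted p = 0.0342; up to 0.168 with 1 library left out). IRF9 rose from 20.2 ± 1.27 to 127 ± 3.62 CPM (SD, n = 3 each; adjusted p = 6.49e-05). Among the 15605 genes tested, 273 were higher in KD (1.75%) and 131 were lower (0.839%), while with the replicate number as a block the shares were 5.1% and 4.42%. At an unadjusted p under 0.05 the shares were 7.77% and 6.98%, with DESeq2 they were 3.51% and 2.77%, and with limma-voom 1.76% and 0.878%. All 8 melanocyte lineage markers exceeded 1 CPM in both groups. Replicate 1 stood apart in both groups: the summed melanocyte markers were 6310 CPM in WT replicate 1 against 1860 and 1920 CPM in the other WT libraries, and 2610 CPM in KD replicate 1 against 1200 and 1270 CPM in the other KD libraries.

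The stretch before the start of an interferon gene is where the factors that switch it on are known to bind. The 250 bases before the start of IFNL1, IFNL2, IFNL3 and IFNB1 are given here. These 4 were picked after the counts were seen, as lambda genes with counts in KD and a type I gene without. A role of these stretches in that contrast was not tested. The sequences are from RefSeq (GRCh38.p14) and were placed on GRCh37, the build of the count table, by exact match, at chr19:39786797-39787046 on the plus strand for IFNL1, chr19:39758786-39759035 on the plus strand for IFNL2, chr19:39735891-39736140 on the minus strand for IFNL3 and chr9:21077942-21078191 on the minus strand for IFNB1. Each reads 5′ to 3′ on the strand of its gene. Capitals mark matches, on either strand, to the core of the interferon-stimulated response element, GAAANNGAAA, or to a kappa B type motif, GGGAANNNCC.
IFNL1: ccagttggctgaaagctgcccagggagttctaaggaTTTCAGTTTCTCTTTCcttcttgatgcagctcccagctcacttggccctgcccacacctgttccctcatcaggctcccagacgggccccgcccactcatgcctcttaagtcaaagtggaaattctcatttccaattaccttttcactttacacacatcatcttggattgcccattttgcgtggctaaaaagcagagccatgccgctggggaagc
IFNL2: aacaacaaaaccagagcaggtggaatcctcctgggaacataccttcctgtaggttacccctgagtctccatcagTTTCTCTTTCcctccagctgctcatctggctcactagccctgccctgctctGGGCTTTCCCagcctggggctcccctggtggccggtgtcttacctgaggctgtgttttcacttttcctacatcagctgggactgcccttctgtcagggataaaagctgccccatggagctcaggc
IFNL3: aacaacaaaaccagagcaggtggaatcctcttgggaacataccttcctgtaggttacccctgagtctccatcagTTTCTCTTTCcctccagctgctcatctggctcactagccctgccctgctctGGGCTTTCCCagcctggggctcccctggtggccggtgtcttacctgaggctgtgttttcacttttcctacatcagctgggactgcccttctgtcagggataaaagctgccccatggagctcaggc
IFNB1: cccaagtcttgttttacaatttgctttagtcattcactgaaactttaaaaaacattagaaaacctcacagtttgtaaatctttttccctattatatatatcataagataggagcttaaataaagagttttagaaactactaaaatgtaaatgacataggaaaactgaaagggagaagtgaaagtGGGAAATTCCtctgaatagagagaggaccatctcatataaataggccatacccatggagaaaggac

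In the IFNL1 sequence the capitals hold a pair of overlapping matches to the response element core, both on the opposite strand, at bases -214 to -205 and -208 to -199 counted from the gene start. IFNL2 and IFNL3 each held 1 such match, at -176 to -167, and 1 kappa B type match, at -125 to -116. For IFNL3 the table also holds a second promoter entry, which matched GRCh37 in 2 places, held neither motif and is not shown. IFNB1 held 1 kappa B type match, at -66 to -57, and no match to the response element core in these letters. Sites with other letters or spacing were not searched for, so no match does not mean that no such site is present. Among all 35116 promoter sequences of this length in the table, 3.02% held the response element core and 6.02% the kappa B type motif. Neither motif matched in the same window of IFNLR1, IL10RB, IFNGR1 or IFNE, and IFNGR2 held 1 kappa B type match at -100 to -91. These matches describe letters only, since no binding was measured in the libraries described here. IFNL2 and IFNL3 were 99.6% identical over these 250 bases, IFNL1 and IFNL2 were 52.3% identical and IFNL1 and IFNB1 were 42.4% identical.

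Of the 5 interferon genes, only IFNL1 was detected in every KD library, and it had no counts in any WT library. The gene lies at chr19:39787047-39789313 on the plus strand (GRCh37). It had 0 expected counts in each of the 3 WT libraries and 199, 262 and 347 in KD replicates 1 to 3. In CPM the KD libraries had 6.19, 8.86 and 10.6, a mean of 8.56 ± 2.23 (SD, n = 3). All KD libraries lay above all WT libraries, which 11.8% of the tested genes did. Against the floor of 3 counts in each WT library, the KD mean was at least 83.4-fold higher, and the lowest KD library was at least 60.3-fold higher. The difference passed the test across all genes (edgeR, adjusted p = 0.0011), as 1.75% of all genes did in this direction and 0.839% in the other. With 0 counts in WT, IFNL1 passed the low-count filter only through its KD libraries, so no share of the tested interferon and receptor genes is read from this call. With 3 libraries against 3, the exact two-sided permutation test, which did not pair libraries by replicate number, gave its smallest possible p, 0.1. In bulk RNA, more cells with IFNL1 RNA and more IFNL1 RNA per cell cannot be told apart.

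Of the 57820 genes, 14 had at most 3 counts in every WT library and at least 1 CPM in every KD library. Genes going the opposite way were not counted. Of the 14, 8 had 0 counts in every WT library, and IFNL1 had the second highest KD mean of these 8. Among the others, named here after their values were seen, were RP11-136F16.1 (21.5 CPM in KD), HSH2D (4.82 CPM), TREM1 (3.35 CPM), PPAN-P2RY11 (2.94 CPM), SLC5A2 (2.25 CPM) and SPRR2A (2.22 CPM).

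IFNL2 and IFNL3 had far fewer counts than IFNL1, each of them mostly in 1 library. IFNL2 (chr19:39759036-39760828, plus strand) had 0 counts in every WT library and 94, 0 and 12 in KD replicates 1 to 3. IFNL3 (chr19:39734095-39735890, minus strand) had 0 counts in every WT library and 0, 10 and 0 in KD. The KD libraries with 0 overlapped the WT libraries in both genes, and neither gene entered the test. IFNL2 had 1.1 ± 1.59 CPM in KD (SD, n = 3), at least 10.7-fold above the WT floor, but 1.79-fold without KD replicate 1, the library that also stood apart in the melanocyte markers.

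Reads cannot always be assigned to IFNL2 or IFNL3. Their longest transcripts were 97.8% identical, and 341 of the 902 stretches of 50 bases in IFNL2, the read length, also occurred in IFNL3 (37.8%; 36.3% of those in IFNL3). IFNL1 shared 0 of its 726 such stretches with either gene, and its longest transcript was 63.0% identical to that of IFNL2. The counts of IFNL2 and IFNL3 are therefore uncertain singly and were also summed. Their sum was 94, 10 and 12 counts in KD replicates 1 to 3 and 0 in WT. Every KD library thus lay above every WT library, which 11.8% of the tested genes did, but the sum did not pass the low-count filter. The summed level was 1.21 ± 1.49 CPM, at least 11.8-fold above the floor, or 3.44-fold without KD replicate 1.

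The 3 lambda genes together varied less among the KD libraries than IFNL1 or IFNL2 alone. Their sum was 293, 272 and 359 counts, or 9.12, 9.2 and 11 CPM, with a mean of 9.77 ± 1.05 CPM (SD, n = 3), at least 95.1-fold above the WT floor. IFNL1 took 67.9% of these counts in KD replicate 1 (exact Clopper-Pearson 95% interval 62.2 to 73.2%), 96.3% in replicate 2 (93.3 to 98.2%) and 96.7% in replicate 3 (94.2 to 98.3%). Replicate 1 thus had the smallest IFNL1 share, outside the intervals of the others, which cover counting error only.

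**Figure D1:**
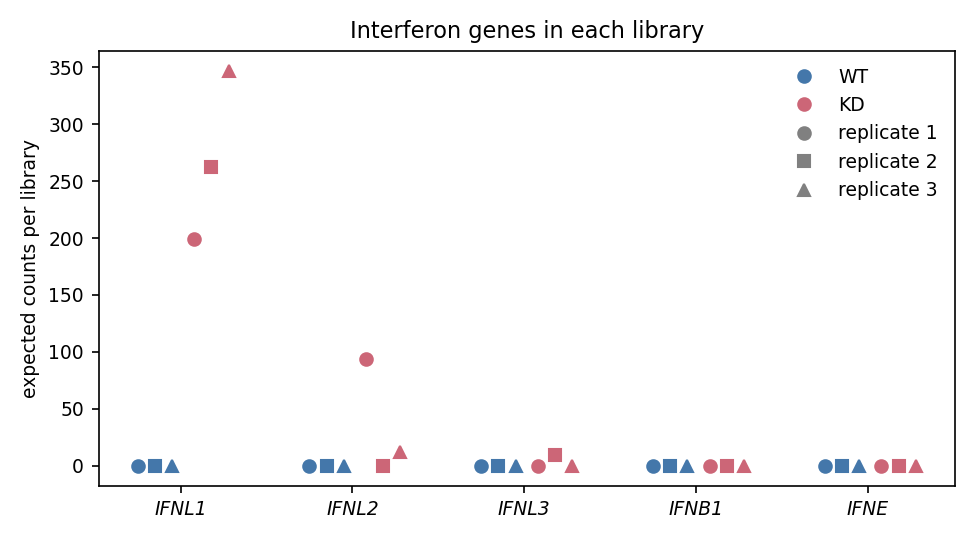
Expected counts (y axis, linear) of the 5 interferon genes (x axis) in each of the 3 WT and 3 KD libraries, 1 point per library. All WT points are at 0, IFNL1 is at 199 to 347 in KD, and IFNL2 and IFNL3 are above 0 in 2 and 1 KD libraries.

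**Figure D2:**
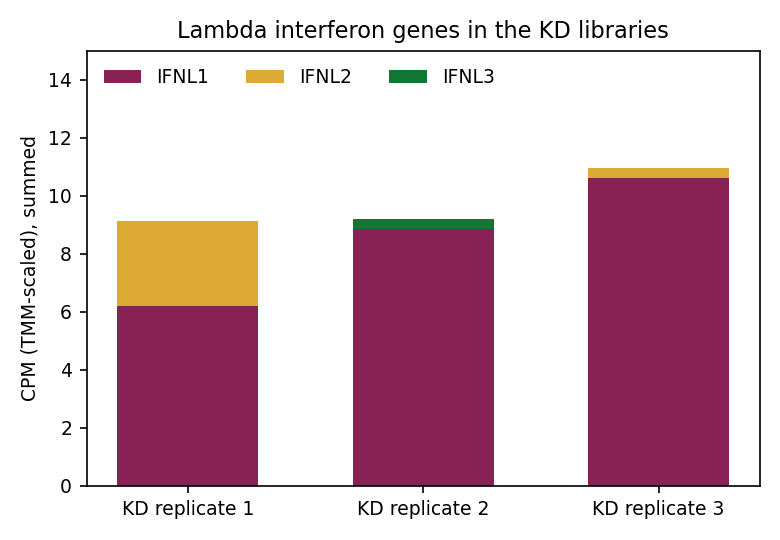
Stacked CPM (y axis, TMM-scaled) of IFNL1, IFNL2 and IFNL3 in the 3 KD libraries, 1 bar per library with no error bars. The totals are 9.12, 9.2 and 11 CPM, and IFNL2 makes up a visible part of the bar in replicate 1.

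The type I genes had no counts. IFNB1 (chr9:21077103-21077941, minus strand), the interferon most cell types make first in a virus response, had 0 counts in all 6 libraries. IFNE (chr9:21480838-21482312, minus strand), known from the epithelium of the reproductive tract, also had 0 in all 6. Given the depth, 0 counts allow a level of up to 0.087 to 0.112 CPM per library, so a transcript below that was not detectable. The other interferon genes listed, 13 IFNA genes, IFNW1, IFNK, IFNG and IFNL4, were at 0 in every library as well (17 of 17). Of the leukocyte and plasmacytoid dendritic cell markers, which would mark other sources of interferon, 0 of 6 exceeded 1 CPM in either group, and LILRA4, CLEC4C and CD3E were at 0 throughout.

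The receptor genes were present without doxycycline. With edgeR 0 of the 4 passed, beside 1.75% of all tested genes higher and 0.839% lower. At an unadjusted p under 0.05 the count was 0, beside 7.77% and 6.98%. With DESeq2 it was 0, beside 3.51% and 2.77%, and with limma-voom 0, beside 1.76% and 0.878%. At such shares, 0 of 4 says little about these genes as a set. IFNLR1 (chr1:24480658-24514449, minus strand), the chain specific to lambda interferons, had 1.02, 1.74 and 0.838 CPM in WT and 0.811, 0.962 and 0.797 CPM in KD. The groups overlapped, and WT replicate 2 was the highest library, while within each of the 3 replicate numbers the KD library was the lower. The log2 fold change was -0.49 (SE 0.96, 95% interval -2.64 to 1.66, adjusted p = 0.889), an interval wide enough to hold a several-fold change either way. At 23.01 to 59.82 counts per library, IFNLR1 was the least precisely measured of the 4. Of 4 epithelial markers, 1 had a mean of at least 1 CPM in WT and 0 did in KD, and KRT14 was the highest. Their sum was 0.727, 4.7 and 3.99 CPM in WT and 0.866, 0.372 and 1.2 CPM in KD, also highest in WT replicate 2. A link of these markers to the IFNLR1 values was not tested. Of the 2 fibroblast and endothelial markers matched, 1 had a mean of at least 1 CPM in each group, and COL1A1 was the highest. Their sum was 2.77, 86.8 and 58.4 CPM in WT and 1.4, 19.9 and 18.1 CPM in KD. No cell type is read from this sum.

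IL10RB (chr21:34638672-34683725, plus strand), the shared chain, had 32.4, 42.3 and 38.2 CPM in WT and 40.0, 52.0 and 54.3 CPM in KD. Only KD replicate 1 lay within the WT range, and within each replicate number the KD library was the higher. The log2 fold change was 0.37 (SE 0.21, 95% interval -0.10 to 0.85, adjusted p = 0.482; 0.218 with the replicate block). Of its annotated exon bases, 21.6% were shared with the read-through gene IFNAR2-IL10RB, which had at most 15.96 counts in any library.

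The chains of the gamma receptor also overlapped between groups. IFNGR1 (chr6:137518620-137540586, minus strand), the chain that binds the ligand, had 8.76, 4.32 and 5.06 CPM in WT and 12.2, 5.72 and 3.86 CPM in KD. Replicate 1 was the highest in both groups. Its log2 fold change was 0.26 (SE 0.5, 95% interval -0.86 to 1.39, adjusted p = 0.885), and it was -0.33 without KD replicate 1. IFNGR2 (chr21:34775719-34851655, plus strand), the signalling chain, had 74.7, 122 and 132 CPM in WT and 92.2, 147 and 136 CPM in KD. Here replicate 1 was the lowest in both groups, and within each replicate number the KD library was the higher. Its log2 fold change was 0.19 (SE 0.27, 95% interval -0.40 to 0.79, adjusted p = 0.833), and it was -0.02 without WT replicate 1. IFNGR2 shared 15% of its exon bases with TMEM50B on the opposite strand.

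**Figure D3:**
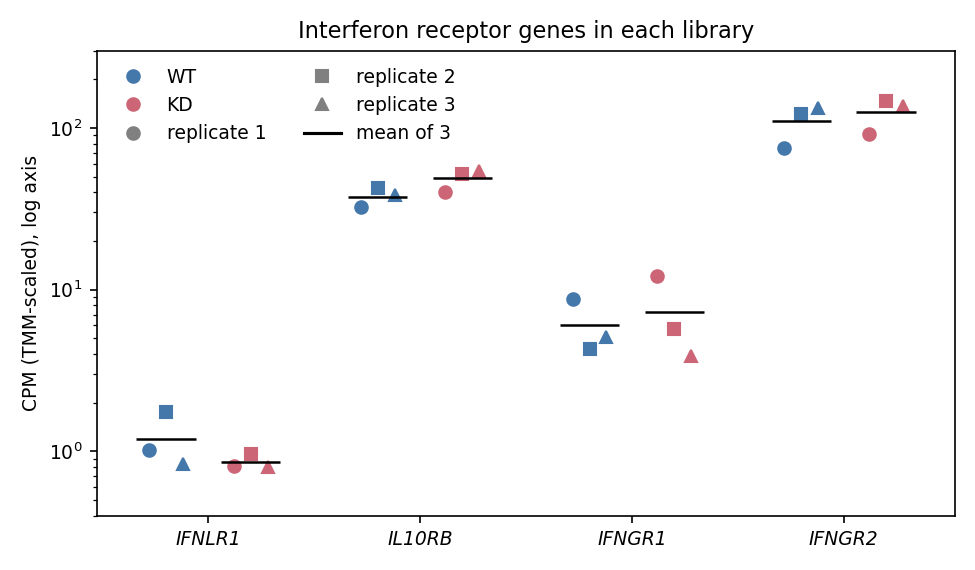
CPM of the 4 receptor genes on a log axis, with 1 point per library, shapes for replicate numbers and a line at the mean of 3 libraries. WT and KD points overlap for each gene, and the points of replicate 1 are the highest for IFNGR1 and the lowest for IFNGR2.

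Levels per kilobase set the genes beside each other. On the scale of CPM per kilobase of annotated exon, the WT means were 43.2 for IFNGR2, 4.69 for IL10RB, 1.7 for IFNGR1 and 0.242 for IFNLR1, and no neighbours in this order overlapped. In KD the order was IFNGR2 (49.3), IFNL1 (11), IL10RB (6.08), IFNGR1 (2.04), IFNL2 (1.15), IFNLR1 (0.173) and IFNL3 (0.114), and the last 4 overlapped with their neighbours. The place of IL10RB depended on the length used: with the canonical transcript alone it had 25.1 CPM per kilobase in KD, above IFNL1 at 11. IFNLR1 was below IL10RB and IFNGR1 with either length, at 0.187 CPM per kilobase in KD with the canonical transcript. The ratio of IL10RB to IFNLR1, on the exon scale, was 19.6, 15 and 28.1 in WT and 30.4, 33.2 and 42.0 in KD. All KD ratios lay above all WT ratios (exact two-sided permutation test without pairing by replicate number, p = 0.1, its smallest possible). The closest, 28.1 in WT replicate 3 and 30.4 in KD replicate 1, rest on 23.01 and 26.07 IFNLR1 counts. Of single tested genes, 11.8% had every KD library above every WT library, and the share for ratios was not computed. Neither IL10RB nor IFNLR1 passed the edgeR test. The ratio of IFNGR2 to IFNGR1 was 11.9, 39.3 and 36.4 in WT and 10.6, 36.0 and 49.3 in KD, with replicate 1 low in both groups (exact permutation p = 1.0).

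Within 200 kb of the lambda genes the annotation held 15 other protein-coding genes, of which 11 were tested and 2 were at 0 in every library. With edgeR 0 of the 11 passed, beside 1.75% of all tested genes higher and 0.839% lower. Their log2 fold changes lay between -0.83 and 0.40, with a smallest adjusted p of 0.0517 (edgeR). At an unadjusted p under 0.05, 2 were lower and 0 higher, beside 6.98% and 7.77% of all genes. With DESeq2 2 were lower and with limma-voom 1, beside 2.77% and 0.878% of all genes. These were TIMM50 and RPS16, which encode a mitochondrial import subunit and a ribosomal protein and were named after their values were seen, and TIMM50 alone with limma-voom. With the replicate block both were lower (adjusted p = 0.00625 for TIMM50 and 0.0277 for RPS16), beside 4.42% of all genes. Around IFNB1, 8 of 10 protein-coding neighbours were at 0 in every library, as were 6 of 7 around IFNE. Around IFNLR1, 4 of 6 neighbours were tested and 0 passed with edgeR, DESeq2 or limma-voom or had an unadjusted p under 0.05. At the shares given above, 0 of 4 says little about these neighbours.

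**Figure D4:**
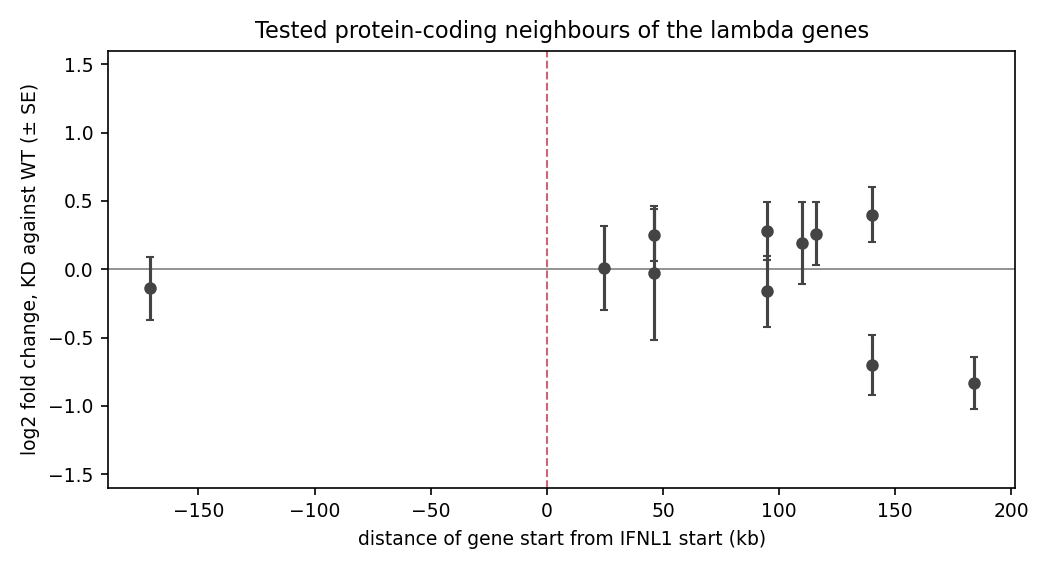
Log2 fold change, KD against WT (y axis, bars show SE), of the 11 tested protein-coding neighbours of the lambda genes by the distance of their start from the IFNL1 start in kb (x axis, dashed line at IFNL1). The points lie between -0.83 and 0.40 and none passed the edgeR test without the replicate block.

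The genes that induce interferons rose in part. Of 15 sensors and adaptors, all tested, 4 were higher in KD and 0 lower, beside 1.75% and 0.839% of all tested genes. Their median log2 fold change was 0.90 against -0.03 over all tested genes. DDX58 (RIG-I), a sensor of viral RNA, rose from 3.26 ± 1.21 to 63.8 ± 17.8 CPM (log2 fold change 4.28, SE 0.36, adjusted p = 0.000236). Its relatives DHX58 and IFIH1 rose by 3.63 and 3.62 on the log2 scale (adjusted p = 2.08e-05 and 0.00132). TRIM25, the ubiquitin ligase that acts on DDX58, rose by 1.2 (adjusted p = 0.0486), and this call was lost without WT replicate 1, 2 or 3 or KD replicate 2 or 3 (adjusted p 0.0702 to 0.239). TMEM173 (STING), the adaptor for cytosolic DNA and the most abundant of those that did not pass, had a log2 fold change of 0.27 (adjusted p = 0.718). With the replicate block 6 of 15 were higher, beside 5.1% of all tested genes. The additional genes were the adaptors TICAM1 and MYD88 (adjusted p = 0.0287 and 0.0133), named after their values were seen.

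Transcription factors that act on interferon promoters mostly did not pass, as most tested genes did not. Of 11 activators 1 was higher and 0 were lower, beside 1.75% and 0.839% of all tested genes, with a median log2 fold change of 0.25. The one was IRF7, which drives the later wave of interferon transcription, which had 14.2, 20.6 and 19.4 CPM without doxycycline and 187, 181 and 222 CPM with it (log2 fold change 3.44, SE 0.23, adjusted p = 5.21e-05). HMGA1, an architectural factor of the IFNB1 enhancer, had a log2 fold change of 0.51 (adjusted p = 0.645). Of 5 repressors 0 passed in either direction with edgeR, beside 1.75% and 0.839% of all tested genes. At an unadjusted p under 0.05, 1 was higher, beside 7.77%, and with DESeq2 1 was higher, beside 3.51%. The median log2 fold change of the repressors was 0.50. Among them NFKBIA, with the highest mean over all 6 libraries, had a log2 fold change of -0.20 (adjusted p = 0.852). IRF2, a repressor named after its values were seen, had a log2 fold change of 1.04 and an adjusted p of 0.0802, which became 0.0176 with the replicate block.

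Of 7 kinases and transducers behind the receptors 3 were higher in KD and 0 lower, beside 1.75% and 0.839% of all tested genes. Their list had a median log2 fold change of 0.99. STAT2 rose from 91.7 ± 22.3 to 352 ± 29.4 CPM (log2 fold change 1.94, adjusted p = 0.00184), and IRF9 rose by 2.66 on the log2 scale. STAT3, used by the interleukin 10 family, had 210 ± 36 CPM in WT and 222 ± 39.7 CPM in KD (adjusted p = 0.926).

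Relatives of the lambda receptor and ligand were tested on the same scale. Of 8 other class II cytokine receptor genes, 6 were tested and 0 passed with edgeR, beside 1.75% higher and 0.839% lower among all tested genes. At an unadjusted p under 0.05, 2 were higher, beside 7.77%, and with DESeq2 1 was higher, beside 3.51%. The median log2 fold change of the 6 was 0.44. IFNAR1, a chain of the type I receptor, had 29.5 ± 8.13 CPM in WT and 30.4 ± 5.22 CPM in KD (adjusted p = 0.969). IL10RA, the ligand-binding chain of the interleukin 10 receptor, which was named after its values were seen, had 0 counts in every WT library and 36, 41 and 25 in KD, and did not pass (adjusted p = 0.101 with edgeR and 0.00411 with DESeq2). Of 6 class II cytokine genes 1 was tested: IL24, whose receptors do not include IFNLR1, had 8.46, 5.40 and 8.66 CPM in WT and 90.2, 35.4 and 39.7 CPM in KD (log2 fold change 2.88, SE 0.4, adjusted p = 0.00539).

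Target genes shared by type I and type III interferons were higher in KD in 15 of 15 cases, beside 1.75% of all tested genes. Their median log2 fold change was 4.56. IFI6 had 72.5, 74.1 and 74.9 CPM in WT and 5320, 3080 and 5160 CPM in KD (log2 fold change 5.94, SE 0.31, adjusted p = 2.08e-05). IFI27 rose from 0.36 ± 0.185 to 216 ± 112 CPM and IFI44L from 0.338 ± 0.372 to 60.1 ± 29.6 CPM (adjusted p = 5.21e-05 and 0.000732). RSAD2, an antiviral enzyme, had 1, 1 and 0 counts in WT and 21.2 to 47.6 CPM in KD (adjusted p = 3.99e-05). For RSAD2 and IFI44L the adjusted p was 0.0533 and 0.0597 with limma-voom. RSAD2, IFI27 and IFI44L were so low in WT that they passed the low-count filter only through their KD libraries. With at least 10 counts required in every library they were not tested.

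Targets prominent in the interferon gamma response mostly did not pass, as most tested genes did not. Of 10 such genes 6 were tested, with a median log2 fold change of 0.23. Of the 6, 1 was higher and 0 were lower, beside 1.75% and 0.839% of all tested genes. The one was GBP2, a guanylate-binding protein, which rose from 27.4 ± 9.12 to 79.7 ± 10.8 CPM (log2 fold change 1.54, adjusted p = 0.015), whose adjusted p was 0.0508 to 0.0926 without WT replicate 3, KD replicate 1 or KD replicate 3. CD74, the invariant chain of class II antigen presentation, had 688 ± 374 CPM in WT and 539 ± 203 CPM in KD (adjusted p = 0.816).

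Of 7 feedback inhibitors 1 was higher and 0 were lower, beside 1.75% and 0.839% of all tested genes, with a median log2 fold change of -0.19. USP18, which blocks signalling at the type I receptor, rose from 6.14 ± 1.8 to 130 ± 21.3 CPM (log2 fold change 4.40, adjusted p = 5.21e-05). PTPN11, a phosphatase, had a log2 fold change of -0.81 (adjusted p = 0.17), and was lower with the replicate block (adjusted p = 0.0222). Over all lists, with each gene counted once, 26 of 73 tested genes were higher in KD and 0 lower (edgeR), beside 1.75% and 0.839% of all tested genes. At an unadjusted p under 0.05 the counts were 33 and 1, beside 7.77% and 6.98%, and with the replicate block they were 29 and 1, beside 5.1% and 4.42%. Of the genes called higher, RSAD2, IFI27 and IFI44L passed the low-count filter only through their KD libraries. With at least 10 counts required in every library, 23 listed genes were higher. Another 25 of the 101 listed genes were at 0 in every library. The lists were chosen with earlier results of these libraries known, so their counts are not independent evidence of a direction.

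**Figure D5:**
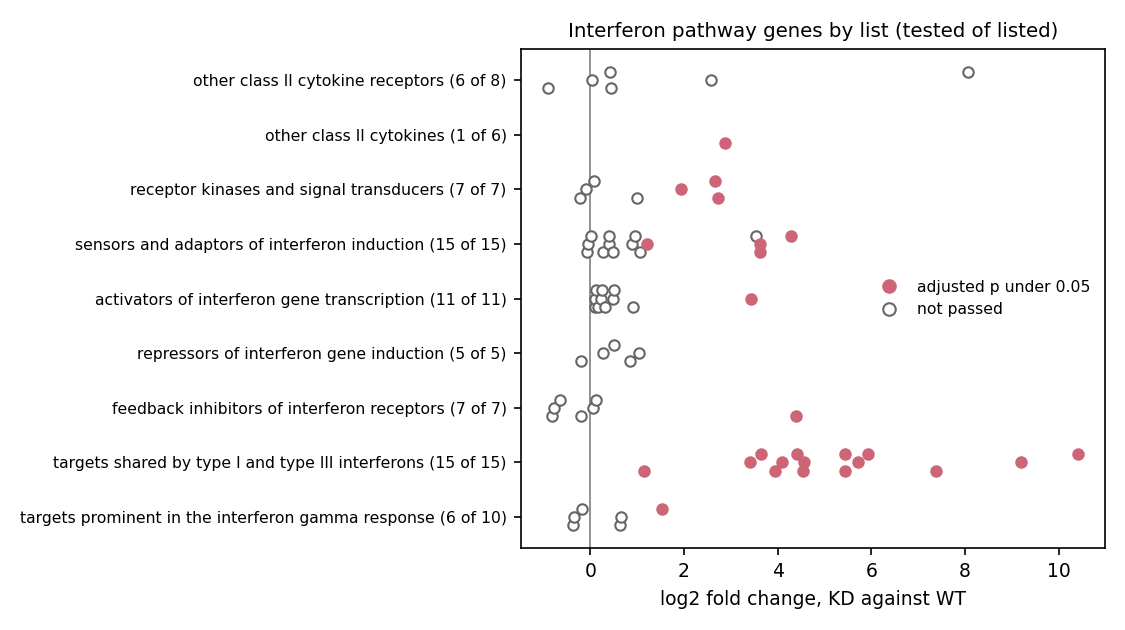
Log2 fold change, KD against WT (x axis), of each tested gene of 9 interferon pathway lists (y axis, tested of listed genes in parentheses), filled where the adjusted p was under 0.05. All 15 shared type I and III targets are filled and lie right of 0, while the fitted values of genes near 0 counts in WT, such as RSAD2 and IL10RA, are not measured folds.

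Across the 6 libraries the genes most like IFNL1, by Pearson's r of log2(CPM + 0.5) among 13535 genes, were N4BP1 (r = 0.9989), TREM1 (r = 0.9988) and GMPR (r = 0.9988), and 281 genes had r above 0.95. These are descriptions, since all points share the same libraries and IFNL1 is at 0 in 3 of them. The genes most like IFNLR1 were TNFAIP8 (r = 0.9874), RPAP1 (r = 0.9862) and PCDHGB6 (r = 0.9859), and 5 genes exceeded 0.95. For IL10RB they were GMIP (r = 0.9935), SPRY4 (r = 0.9927) and ATP6AP1 (r = 0.9907). IFNGR1 was closest to GPR180 (r = 0.9946) and PAWR (r = 0.9896), and IFNGR2 to FZD8 (r = 0.9944), MAGOH (r = 0.9927) and PCBP1 (r = 0.9911).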

How the data were processed

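The authors deposited RSEM expected counts per gene, estimates that divide a read matching several genes between them, from STAR alignments to hg19 of single-end 50-base reads of poly(A)-selected, directional libraries. The strand setting of the counting and the annotation release are not given in the sources used here. The values were not scaled or filtered.

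The 6 libraries were grouped by their labels (3 WT, 3 KD). Expected counts were rounded, genes were kept with filterByExpr and scaled by TMM, and KD was tested against WT with the quasi-likelihood test of edgeR 4.0.16 in R 4.3.3, with Benjamini-Hochberg adjustment over 15605 genes and a threshold of 0.05. The code was tested on simulated data. Levels are CPM with TMM-scaled library sizes, and a level of 0 was bounded by 3 counts. Single genes were compared by exact two-sided permutation tests on log2(CPM + 0.5). Neither these tests nor the main edgeR test used the replicate numbers as pairs. The floors and the Clopper-Pearson intervals of shares cover counting error only. The SEs and intervals of log2 fold changes were worked back from the edgeR log2 fold change and its F statistic. They are therefore approximate, and they include the spread between libraries. The study describes its samples as biologically independent. Replicates of the same number deviated together (r of deviations from group means 0.56, 0.40 and 0.32 over 10570 genes), although replicates 2 and 3 also did so across numbers (0.25 for WT replicate 2 with KD replicate 3, and 0.20 for WT replicate 3 with KD replicate 2). All 3 same-number values exceeded 0.1, but so did the 0.25 and 0.20 across numbers, so this cut does not establish pairs. A fit with the number as a block, which takes the numbers as pairs, was therefore run as an alternative. Others were DESeq2 1.42.0, limma-voom (limma 3.58.1), upper-quartile or no scaling, no filter, at least 10 counts in every library, leaving out each library and summing the lambda genes. Leaving out both replicate 1 libraries, summing IFNL2 and IFNL3 and the canonical transcript length were added after the data had been seen.

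Positions, exon lengths and transcripts are from GENCODE v44lift37, which may differ from the authors' annotation. All 9 genes matched the RefSeq promoter table. In each pathway list, the text names up to 4 called genes with the largest change and the most abundant gene that did not pass. The genes and lists were chosen with earlier results of these data known. One fibroblast and endothelial marker was not matched and left out. Some results are not reported here.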

Additional observations from a re-analysis of the deposited data

How the results depend on the processing

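IFNL1 was higher in KD under every alternative in which it was tested. Its adjusted p lay between 3.46e-18 (no filter) and 0.0237 (limma-voom), and between 0.00105 and 0.0116 when 1 library was left out. IFNL1 entered the filtered fits only through its KD libraries. All fits rest on the same counts, 0 in WT, so their agreement is not separate evidence. With at least 10 counts required in every library IFNL1 was not tested, so that 0 of the interferon and receptor genes were called. The 4 receptor genes passed under no alternative, but signs moved with single libraries: over the fits with 1 library left out, the log2 fold change ranged from -0.33 (without KD replicate 1) to 0.61 for IFNGR1 and from -0.02 (without WT replicate 1) to 0.38 for IFNGR2. It ranged from -0.11 to 0.28 for IFNAR1 and from -0.06 to 0.22 for STAT3. The cause was not tested. Without a filter IFNL2 had an adjusted p of 0.0568 and IFNL3 of 0.581. The sum of IFNL2 and IFNL3 stayed below the filter.

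Genes called higher and lower numbered 547 and 432 with DESeq2, 573 and 530 without a filter, 796 and 690 with the replicate block and 461 and 296 without both replicate 1 libraries. When 1 library was left out they ranged from 106 to 340 higher and from 15 to 191 lower, and were 106 and 15 without KD replicate 3. Of the listed pathway genes 23 to 30 were higher over all alternatives, and 1, PTPN11, was lower without a filter and with the replicate block. The block also added TICAM1, MYD88 and IRF2 and the lambda neighbours TIMM50 and RPS16, and it changed no other call among the interferon, receptor and listed pathway genes and the neighbours. STAG2 fell by 2.12 on the log2 scale without composition scaling (adjusted p = 0.0591), and its values ranged from -2.63 to -1.68 when 1 library was left out, where the adjusted p reached 0.168. Depth limits statements on IFNL3, IFNB1 and IFNE to levels above 3 counts per library.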
